A study of Mus musculus with 6 samples.

Results

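Pck1, Fbp1, Igfbp1 and Klf9 are 4 of the 1834 genes in a table of normalised read counts from mouse liver. They were picked by name as gluconeogenic, insulin-repressed or glucocorticoid-induced genes, with their levels in these same libraries already known. The study compared livers given an adeno-associated virus (AAV, a vector that carries a gene into liver cells) with Ly6d, labelled as Ly6d overexpression (AAV-Ly6d, 3 libraries), with livers given the vector with green fluorescent protein and labelled WT (AAV-GFP, 3 libraries). The title names MASLD (fatty liver disease linked to metabolic dysfunction), and the design states a common diet for both groups. Ly6d encodes a lipid-anchored cell surface protein of the Ly6 family. No source used here states the strain, sex, age, diet, vector promoter, vector dose or time after injection. Nor do the labels say that libraries came from separate mice, so the errors cover the spread between samples and may be technical.

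The 4 genes stand at different points of the fasting response. When insulin falls and glucagon and glucocorticoids rise, hepatocytes make glucose from lactate, glycerol and amino acids. Insulin acts through the kinase AKT, which keeps the transcription factor FOXO1 out of the nucleus, glucagon acts through cyclic AMP and the factor CREB, and glucocorticoids act through the glucocorticoid receptor NR3C1. Pck1 encodes the cytosolic phosphoenolpyruvate carboxykinase, which commits oxaloacetate to glucose synthesis. Fbp1 encodes fructose-1,6-bisphosphatase, the step that bypasses phosphofructokinase. Igfbp1 encodes a secreted protein that binds insulin-like growth factors, and its transcription in liver is strongly repressed by insulin. Klf9 encodes a Krüppel-like zinc finger transcription factor that is induced by glucocorticoids.

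The promoters of the 4 genes are shown because insulin, glucagon and glucocorticoids act on this class of genes through short motifs near or upstream of the start site. All 4 genes matched a RefSeq promoter window on GRCm38.p6 by symbol. Each window runs from 250 bases before to 50 bases after the RefSeq start, and the bases from 250 to 31 before the start are printed on the strand of the gene, 5′ to 3′. Capitals mark motif matches on either strand. The printed stretches are chr2:173152823-173153042 (plus strand) for Pck1, chr13:62888313-62888532 (minus strand) for Fbp1, chr11:7197537-7197756 (plus strand) for Igfbp1 and chr19:23140976-23141195 (plus strand) for Klf9.
Pck1: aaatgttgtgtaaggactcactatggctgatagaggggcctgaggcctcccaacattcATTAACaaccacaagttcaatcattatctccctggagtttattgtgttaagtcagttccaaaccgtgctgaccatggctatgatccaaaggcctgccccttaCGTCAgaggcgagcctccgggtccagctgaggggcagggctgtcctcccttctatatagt
Fbp1: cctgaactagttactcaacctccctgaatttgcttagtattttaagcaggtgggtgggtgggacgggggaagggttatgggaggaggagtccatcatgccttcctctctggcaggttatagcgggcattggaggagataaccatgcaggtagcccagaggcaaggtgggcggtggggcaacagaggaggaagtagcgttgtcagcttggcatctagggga
Igfbp1: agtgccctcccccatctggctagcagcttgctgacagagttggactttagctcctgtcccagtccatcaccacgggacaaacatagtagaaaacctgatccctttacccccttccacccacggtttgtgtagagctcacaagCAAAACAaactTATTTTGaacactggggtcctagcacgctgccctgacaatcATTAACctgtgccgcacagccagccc
Klf9: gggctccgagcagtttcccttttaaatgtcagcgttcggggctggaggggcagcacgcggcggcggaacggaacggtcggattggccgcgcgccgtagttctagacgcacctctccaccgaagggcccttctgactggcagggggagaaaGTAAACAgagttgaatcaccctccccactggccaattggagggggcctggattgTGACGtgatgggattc

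The motif sets differed between the 4 windows. The Pck1 window held the core of the cyclic AMP response element (TGACG) on the minus strand 90 bases before the start, and Klf9 held the same core on the plus strand 46 bases before it. This core lies in 20.8% of all 32851 RefSeq promoter windows of the same length, so its presence in a window is common. Igfbp1 held CAAAACA and, on the minus strand, CAAAATA, the forms of the insulin response sequence that FOXO proteins bind, 108 and 97 bases before the start. Of all windows, 6.28% held CAAAACA and 4.36% held CAAAATA. In Klf9 the FOXO core GTAAACA was found 100 bases before the start, a motif held by 3.65% of windows. ATTAAC, the core of the site of the hepatocyte factor HNF1, lay 192 bases before the start of Pck1 and 56 bases before that of Igfbp1, and in 7.10% of windows. Fbp1 held none of the motifs searched. The full glucocorticoid response element, AGAACA and TGTTCT with 3 bases between them (in 0.00913% of windows), its core AGAACA (19.0%), the full cyclic AMP response element TGACGTCA (1.79%) and the TATA box TATAAA (13.6%) had no match in any of the 4 windows. Motifs were searched only as these exact letters, so a TATA box of another form would not be found. The CG dinucleotide count was 28 in the Klf9 window, against 6, 6 and 8 in those of Pck1, Fbp1 and Igfbp1 and a median of 7 over all windows. A match is a description of the letters only, since binding was not measured.

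**Figure D1:**
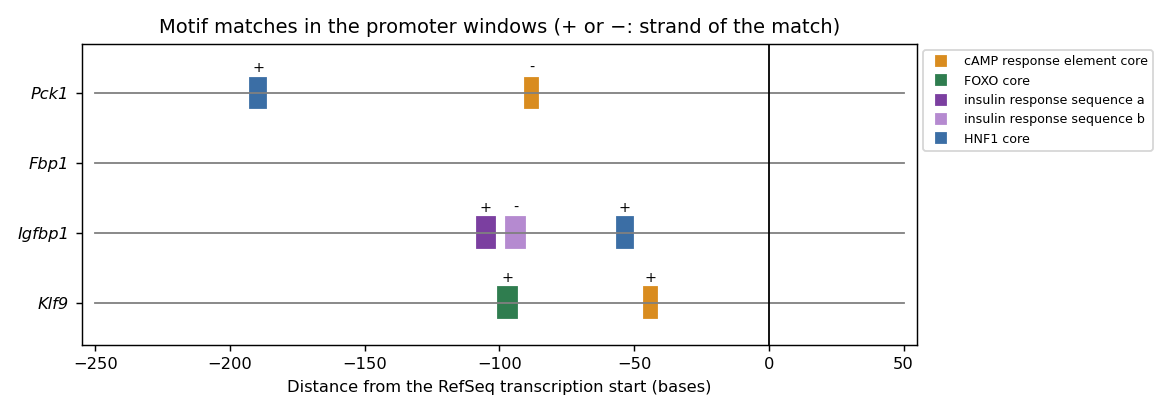
Motif matches by distance in bases from the RefSeq transcription start (vertical line at 0) in the windows of Pck1, Fbp1, Igfbp1 and Klf9, with the strand of each match above it. Igfbp1 holds the pair of insulin response sequences at 108 and 97 bases before the start, and Fbp1 has no match.

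The labels held for the overexpressed gene, as Ly6d had normalised counts of 3181, 1799 and 3275 in AAV-Ly6d livers, against 56.1, 9.68 and 182 in AAV-GFP livers. Between 3248078 and 4359932 reads per library fell on the genes of the table, which covers only part of each library. In AAV-GFP replicate 2, Apob, the gene of the main apolipoprotein of very low density lipoproteins, held 20.1% of these reads, against 4.49% to 6.41% in the other 5 libraries. Hepatocyte markers were present, with Apoa1, Apob, Hnf4a, Serpina1a and Ahsg (5 of 13 listed) among the genes of the table. Of these, 2 rose (Apoa1 and Hnf4a) and 0 fell in limma. Their summed count was 513084 to 521918 in AAV-Ly6d and 394996 to 887632 in AAV-GFP. Apob alone had 743167 counts in AAV-GFP replicate 2, against 186314 to 216089 in the other 5 libraries. Of all 1780 tested genes, 15.9% rose and 28.0% fell in limma (adjusted p under 0.05). Without AAV-Ly6d replicate 1 limma called 0 genes in either direction. Of 13 endothelial markers, 8 were in the table and all 8 fell, and their sum was 2568 to 3169 in AAV-Ly6d against 6817 to 10683 in AAV-GFP. Of 12 stellate cell and fibroblast markers, 8 were in the table and 6 fell, with sums of 1128 to 2527 in AAV-Ly6d and 3648 to 5196 in AAV-GFP. Of the 2 cholangiocyte markers in the table (Sox9 and Tff3, of 8 listed) both rose, with sums of 303 to 1111 in AAV-Ly6d and 59.2 to 80.2 in AAV-GFP. Of 7 erythroid markers, 5 were in the table and 2 fell, with sums of 1898 to 2850 in AAV-Ly6d and 2708 to 5863 in AAV-GFP. The single B cell marker in the table, Igkc, rose, and of the Kupffer cell, T and NK cell, neutrophil, and kidney and intestine lists 0 genes were in the table. The part of these markers in the differences below was not tested, and in bulk liver a change in the number of cells of a type and a change of RNA per cell cannot be told apart.

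All 4 genes were higher in AAV-Ly6d livers than in AAV-GFP livers, with no overlap between the groups. The mean count in AAV-Ly6d was 3.52 times that in AAV-GFP for Igfbp1, 1.73 times for Pck1, 1.58 times for Fbp1 and 1.45 times for Klf9. These differences are the ones the genes were chosen for, so they are given as a description with no test. Groups did not overlap for 84.5% of the 1780 tested genes of the table (35.2% higher and 49.3% lower in AAV-Ly6d), so the lack of overlap is common in this table.

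Pck1, the most abundant of the 4, had normalised read counts of 77964, 70477 and 78454 in AAV-Ly6d, against 53908, 25866 and 51472 in AAV-GFP. The AAV-Ly6d libraries lay close together, while AAV-GFP replicate 2 held 0.491 times the mean of the other AAV-GFP libraries. Means were 75631 ± 4471 in AAV-Ly6d and 43749 ± 15534 in AAV-GFP (SD, n = 3 each). The lowest AAV-Ly6d library was 1.31 times the highest AAV-GFP library. On the log2(count + 1) scale the difference was 0.86 (SE 0.30). Without AAV-GFP replicate 2 the log2 difference was 0.52 and the ratio of means 1.44. The gene lies on chromosome 2 from 173153048 to 173159273 (GRCm38, plus strand), and its longest annotated transcript has 9 exons and 2728 bases.

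Fbp1 ranked the 6 libraries in the same order as Pck1. Its counts were 23207, 21984 and 23864 in AAV-Ly6d, against 16804, 10242 and 16711 in AAV-GFP. Again the AAV-Ly6d libraries agreed closely and AAV-GFP replicate 2 was the lowest of all 6. The means were 23019 ± 954 in AAV-Ly6d and 14586 ± 3762 in AAV-GFP (SD, n = 3 each), with a log2 difference of 0.69 (SE 0.23) that became 0.46 without AAV-GFP replicate 2. Because both enzymes were counted in the same libraries, their ratio does not depend on how libraries were scaled. Pck1 counts were 3.36, 3.21 and 3.29 times those of Fbp1 in AAV-Ly6d, against 3.21, 2.53 and 3.08 times in AAV-GFP. The ratio thus overlapped between the groups, and its lowest value was again that of AAV-GFP replicate 2. Fbp1 spans 62864753 to 62888282 of chromosome 13 (minus strand), with 7 exons and 1479 bases in its longest transcript.

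Igfbp1 differed most between the groups and, of the 4 genes, varied most among AAV-Ly6d libraries. It had counts of 2636, 7994 and 3390 in AAV-Ly6d, against 1458, 804 and 1719 in AAV-GFP. AAV-Ly6d replicate 2 stood well above its group, at 3.03 times the lowest AAV-Ly6d library, and it was not high for any of the other 3 genes. Means were 4674 ± 2901 in AAV-Ly6d and 1327 ± 471 in AAV-GFP (SD, n = 3 each), a log2 difference of 1.72 (SE 0.44). Without AAV-Ly6d replicate 2 the ratio of means was 2.27 and the log2 difference 1.24, and without AAV-GFP replicate 2 they were 2.94 and 1.39. Of the tested genes, 4.38% had a larger positive log2 difference than Igfbp1, against 15.8% for Pck1, 21.8% for Fbp1 and 29.4% for Klf9. Igfbp1 counts relative to Klf9 in the same library were 0.736, 2.32 and 1.03 in AAV-Ly6d, against 0.546, 0.405 and 0.697 in AAV-GFP. This ratio did not overlap between the groups, although AAV-Ly6d replicate 1 lay just above AAV-GFP replicate 3. Igfbp1 relative to Fbp1 did not overlap either, while Pck1 relative to Klf9 and Fbp1 relative to Klf9 did. The ratios are of genes chosen for their differences, so they are a description with no test. Igfbp1 spans 7197782 to 7202546 of chromosome 11 (plus strand), with 4 exons and 1525 bases in its longest transcript.

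Klf9 showed the smallest difference and the tightest AAV-GFP group. Its counts were 3581, 3448 and 3286 in AAV-Ly6d, against 2669, 1985 and 2467 in AAV-GFP. The lowest AAV-Ly6d library was 1.23 times the highest AAV-GFP library, the narrowest gap of the 4 genes. The means were 3438 ± 148 in AAV-Ly6d and 2374 ± 351 in AAV-GFP (SD, n = 3 each), and the log2 difference was 0.54 (SE 0.18), or 0.42 without AAV-GFP replicate 2. Klf9 spans 23141226 to 23168134 of chromosome 19 (plus strand) and has 2 exons and 4486 bases in its longest transcript. An annotated microRNA hairpin, Mir1192, lies inside its intron on the same strand, and no annotated gene overlaps the other 3 genes.

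**Figure D2:**
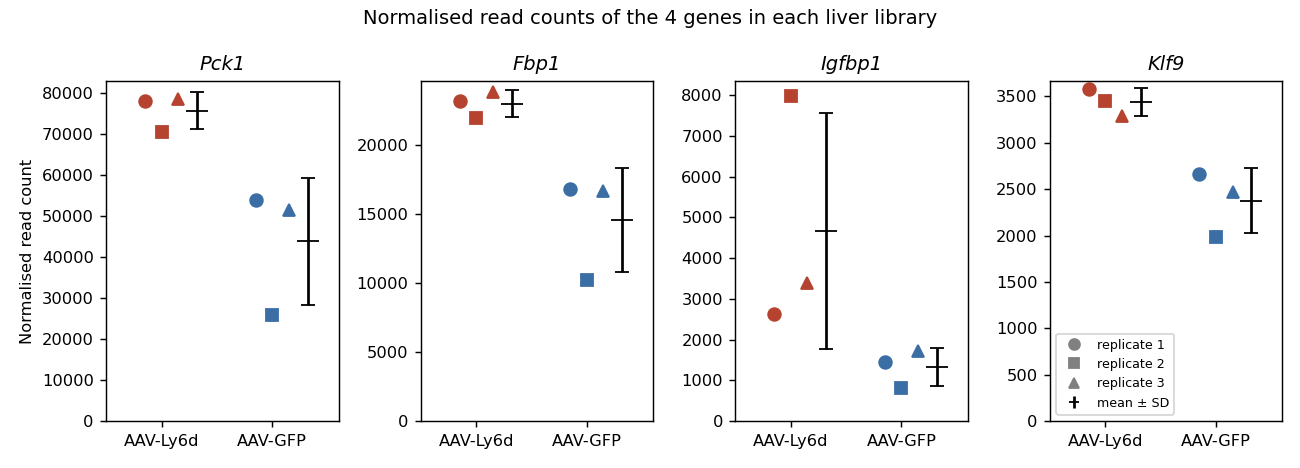
Normalised read counts (vertical axes from 0) of Pck1, Fbp1, Igfbp1 and Klf9 in the 3 AAV-Ly6d libraries and the 3 AAV-GFP libraries, with the group mean ± SD beside the points and 1 marker shape per replicate number. All AAV-Ly6d points lie above all AAV-GFP points in each panel, AAV-GFP replicate 2 is the lowest point of each, and AAV-Ly6d replicate 2 stands apart for Igfbp1 at 7994.

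Per kilobase of transcript the order of the 4 genes was the same in both groups. Pck1 had 27724 ± 1639 normalised counts per kilobase in AAV-Ly6d and 16037 ± 5694 in AAV-GFP, and Fbp1 had 15564 ± 645 in AAV-Ly6d and 9862 ± 2544 in AAV-GFP (SD, n = 3 each). Igfbp1 followed with 3065 ± 1902 in AAV-Ly6d and 870 ± 309 in AAV-GFP, and Klf9 came last with 766 ± 33.0 in AAV-Ly6d and 529 ± 78.3 in AAV-GFP. This order held in each of the 6 libraries. Neighbours in it overlapped between libraries in AAV-GFP, where the lowest Pck1 value (9482) was below the highest Fbp1 value (11362) and the lowest Igfbp1 value (527) below the highest Klf9 value (595). In AAV-Ly6d no neighbours overlapped, and Fbp1 and Igfbp1 did not overlap in either group.

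The size of the differences depended on the scaling, and their direction did not in any setting given here. The median log2 difference of the 1780 tested genes was -0.67 on the deposited scale. Scaling libraries to a common median ratio shifted this median by 0.34, and the log2 differences became 1.21 for Pck1, 1.04 for Fbp1, 2.06 for Igfbp1 and 0.89 for Klf9. Expressing each library as a share of the table's reads without Apob shifted the median by -0.46, with 0.41 for Pck1, 0.24 for Fbp1, 1.26 for Igfbp1 and 0.093 for Klf9. Both rescalings rest on genes that differ between these libraries. With each library left out in turn, the log2 difference ranged from 0.52 to 1.05 for Pck1, 0.46 to 0.81 for Fbp1, 1.24 to 2.04 for Igfbp1 and 0.42 to 0.63 for Klf9. Transcript length also moved with direction in the table. In the tercile of tested genes with the shortest transcripts (57 to 2729 bases), which holds Pck1, Fbp1 and Igfbp1, 64.4% were higher in AAV-Ly6d. In the middle tercile (2733 to 4761 bases), which holds Klf9, 40.1% were higher, and in the longest tercile 13.5%. The part of length in the differences of the 4 genes, and in those of the lists below, was not tested.

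**Figure D3:**
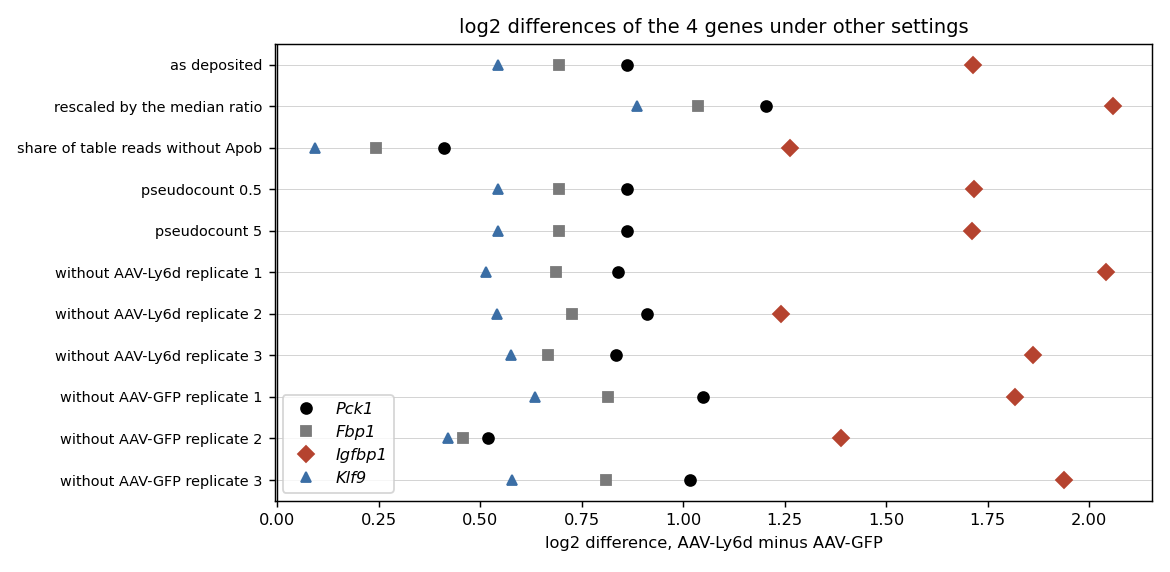
Log2 differences (AAV-Ly6d minus AAV-GFP) of Pck1, Fbp1, Igfbp1 and Klf9 on the deposited scale, after 2 rescalings, with pseudocounts of 0.5 and 5, and with each library left out. All points lie above 0; the lowest is Klf9 at 0.093 as a share of the table's reads without Apob.

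The genes of related pathways were then read from 14 lists of 205 genes, of which 57 besides the 4 were in the table and tested. Differences were tested with limma across all 1780 tested genes, and "rose" and "fell" refer to a Benjamini-Hochberg adjusted p under 0.05. Of the 57 genes, 23 rose, 12 fell and 22 did not pass. Among all tested genes 43.9% passed, with 15.9% higher and 28.0% lower. The median log2 fold change of the 57 genes was 0.53, against -0.67 for all tested genes. Fewer of the 57 genes passed with any 1 library left out, which also leaves fewer libraries to test. Whether the particular library or the smaller number lowered the calls was not tested. When AAV-GFP replicate 1, 2 or 3 was left out, 7, 30 and 10 of the 57 genes passed. As a share of the table's reads without Apob, 2 of the 57 were called higher and 22 lower. When an AAV-Ly6d library was left out, 0 passed in limma, for these 57 and so for each list described below. Without AAV-Ly6d replicate 1, 2 or 3, 30, 33 and 39 of the 57 had an unadjusted limma p under 0.05. Such values were common in the table, where 773 of the 1834 genes had one without AAV-Ly6d replicate 1. With p-values adjusted over all 55450 annotated genes, limma called 0 of the 57. Of the 57, 49 had an unadjusted limma p under 0.05, as had at least the 43.9% of all tested genes that passed above. DESeq2 on recovered reads, adjusted in that way, called 6 of the 57 (3 higher and 3 lower), against 6.97% of all tested genes.

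Of the 6 gluconeogenesis enzyme genes listed besides Pck1 and Fbp1, 0 were among the genes of the table, and G6pc, Pcx and Slc37a4 were therefore not analysed here. Genes that supply carbon to gluconeogenesis were higher. All 5 tested members of that list rose (of 18 listed), against 15.9% of all tested genes. Their median log2 fold change was 1.01, against -0.67 for all tested genes. Tat, the tyrosine aminotransferase gene, a classical target of glucocorticoids, had counts of 57597, 62072 and 38320 in AAV-Ly6d, against 28643, 14233 and 28517 in AAV-GFP. It rose by 1.19 (SE 0.33, adjusted p = 0.0401 in limma) and its groups did not overlap. Sds, which makes pyruvate from serine, rose by 1.11. The aspartate transaminase gene Got1 rose by 1.01 and the alanine transaminase gene Gpt2 by 0.86, and of these 4 Gpt2 also passed the DESeq2 adjustment over all annotated genes. With AAV-GFP replicate 1, 2 or 3 left out, 1, 4 and 1 of the 5 genes passed, and as a share of the table's reads without Apob 0 passed. Ldha, Got1, Sds and Tat have transcripts in the shortest length tercile (1288 to 2375 bases), and Gpt2 is in the middle one (3639 bases). The part of length in these rises was not tested.

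Among genes induced by glucocorticoids, all 8 tested besides Klf9, Igfbp1 and Pck1 had positive log2 fold changes, and 4 of them rose (of 20 listed). Of all tested genes, 39.3% had a positive log2 fold change and 15.9% rose. Fkbp5, which encodes a co-chaperone of the glucocorticoid receptor, had counts of 3436, 1943 and 1740 in AAV-Ly6d, against 462, 422 and 1100 in AAV-GFP. The AAV-Ly6d libraries were all above the AAV-GFP libraries, with a mean 3.59 times as high. It rose by 1.92 (SE 0.41, adjusted p = 0.0324 in limma) and passed the DESeq2 adjustment over all annotated genes. Tdo2, the tryptophan dioxygenase gene, rose by 0.71. The metallothionein gene Mt1 rose by 2.31, or 1.52 without AAV-GFP replicate 1, and Tat is also on this list. AAV-Ly6d replicate 1 held the highest Fkbp5 and Mt1 counts, while AAV-Ly6d replicate 2 held the highest Igfbp1 and Tat counts. As a share of the table's reads without Apob, 1 gene of this list was called higher. The calls numbered 0, 3 and 4 when AAV-GFP replicate 1, 2 or 3 was left out.

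The receptor itself, Nr3c1, and Hsd11b1, which reactivates glucocorticoids in liver, were not among the genes of the table. In the list of receptor and hormone handling genes, 4 of 11 were tested. The chaperone genes Hsp90aa1 and Hsp90ab1, whose products hold the receptor ready for its ligand, each rose by 0.70. Hsp90aa1 lay close to the threshold (limma adjusted p = 0.0489) and was not called with a pseudocount of 5, with no filter or with a stricter filter on low values. Neither was called in edgeR on the deposited scale, in limma without the trend or as a share of the table's reads without Apob. Nr3c2, the mineralocorticoid receptor gene, fell by 0.93 on the log2 scale, but was not called on the median ratio scale (-0.58, limma adjusted p = 0.0714). H6pd, which supplies NADPH to the enzyme encoded by Hsd11b1, had a log2 fold change of 0.49 and did not pass (adjusted p = 0.0539). The list had 3 calls with AAV-GFP replicate 2 left out and 0 with any other library left out.

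Genes that insulin induces were lower. All 8 tested members (of 13 listed) had negative log2 fold changes, of which 5 fell, and the median was -1.05, against -0.67 for all tested genes. Negative values were common in the table, where 39.3% of all tested genes had a positive log2 fold change and 28.0% fell. Pklr, the liver pyruvate kinase gene, had counts of 815, 639 and 924 in AAV-Ly6d, against 1360, 3302 and 2132 in AAV-GFP. It fell by 1.44 on the log2 scale (SE 0.32, adjusted p = 0.0324 in limma) with no overlap between the groups. Fasn, the fatty acid synthase gene, fell by 1.23 and Srebf1, the gene of the lipogenic factor SREBP1, fell by 1.06. Elovl6, a fatty acid elongase gene, fell by 0.92 but was not called on the median ratio scale (-0.57, adjusted p = 0.0737). AAV-GFP replicate 2, the library with the lowest Pck1, Fbp1, Igfbp1 and Klf9 counts of its group, held the highest count of the group for 7 of the 8 genes. Across all tested genes this library was the lowest of its group for 35.7% and the highest for 49.9%. The call of Acaca, the acetyl-CoA carboxylase gene, was also lost on the median ratio scale (adjusted p = 0.0724 in limma), which left 3 of the 8. Pklr and Srebf1 passed the DESeq2 adjustment over all annotated genes (adjusted p = 0.0191 for each). Leaving out AAV-GFP replicate 1, 2 or 3 gave 2, 5 and 1 calls. By transcript length, Fasn, Acaca, Elovl6 and Scd1 are in the longest tercile, Srebf1, Pklr and Acly in the middle one and Thrsp in the shortest. The part of length in these falls was not tested.

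**Figure D4:**
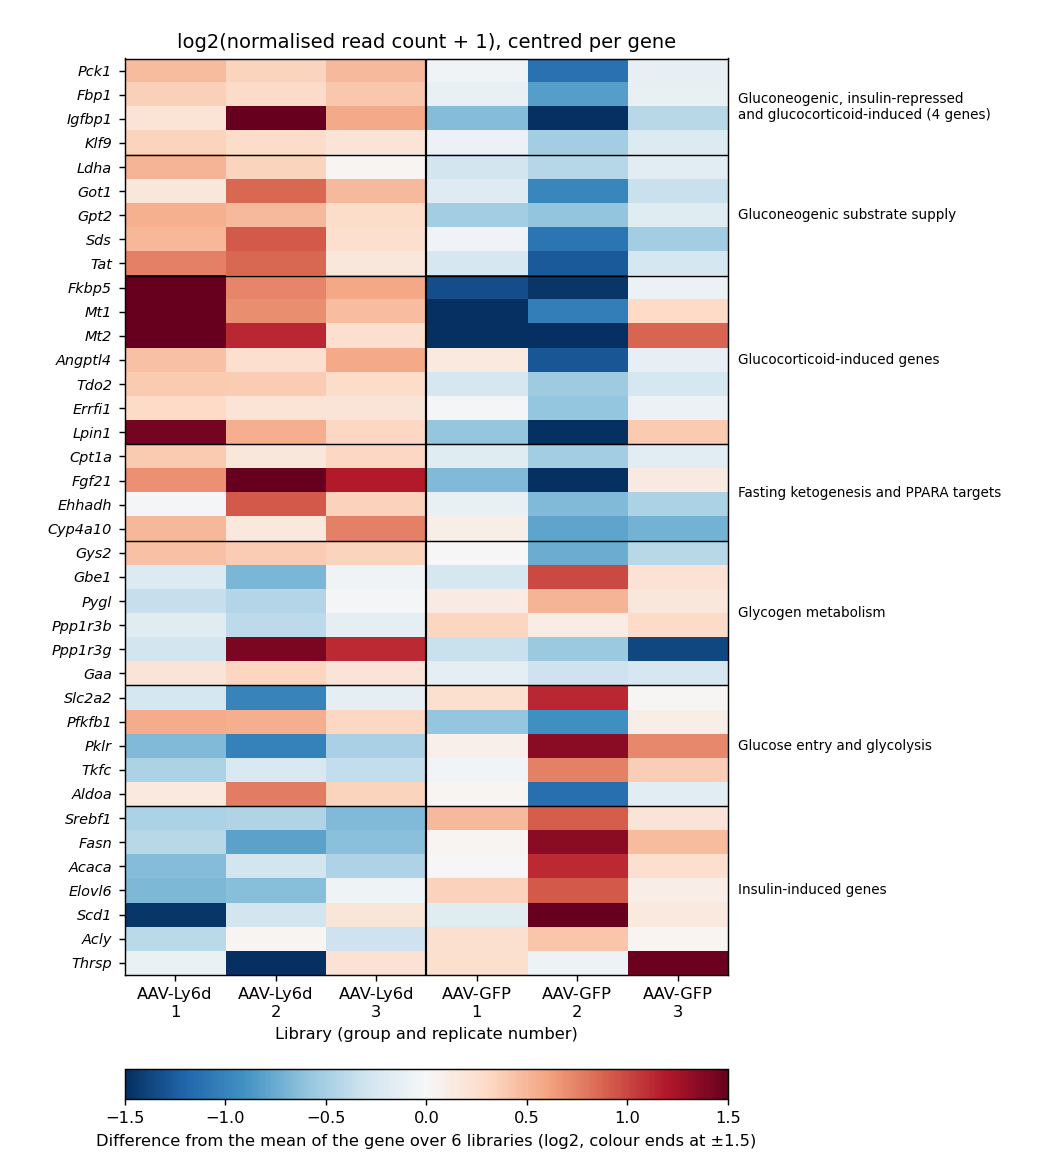
Log2(normalised read count + 1) of Pck1, Fbp1, Igfbp1, Klf9 and the tested genes of 6 related lists in each library, minus the mean of the gene over the 6 libraries, with AAV-Ly6d libraries left of the black line and AAV-GFP libraries right of it. AAV-GFP replicate 2 is the bluest AAV-GFP column for Pck1, Fbp1, Igfbp1 and Klf9 and the reddest for 7 of the 8 insulin-induced genes, of which Pklr is drawn among the glycolysis genes.

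Other insulin-regulated genes were few in the table. Of 13 insulin-repressed FOXO1 targets listed besides Igfbp1 and Pck1, the lipase gene Pnpla2 was the single one tested. Pnpla2 encodes the enzyme that starts the breakdown of stored triglyceride, and it rose by 0.97 (0.64 without AAV-GFP replicate 2). It passed with that library left out and with no other. In the insulin signalling list 3 of 24 genes were tested. Trib3, which encodes an inhibitor of AKT, rose by 1.23, and Pik3r1, which encodes the regulatory subunit of phosphoinositide 3-kinase, fell by 0.65 on the log2 scale, though it was not called on the median ratio scale (-0.31, limma adjusted p = 0.276). Socs3, an inhibitor of cytokine signalling, had a log2 fold change of 1.65, or 0.93 without AAV-GFP replicate 2, and did not pass (adjusted p = 0.0519). Of the 3 genes, Trib3 alone passed with AAV-GFP replicate 2 or 3 left out, and 0 with AAV-GFP replicate 1 left out.

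Among the relatives of Igfbp1, 4 of 12 genes of the insulin-like growth factor system were tested. Igfbp5 had counts of 52.5, 53.8 and 84.9 in AAV-Ly6d, against 120, 194 and 215 in AAV-GFP, and fell by 1.45 on the log2 scale. Igfbp6 fell by 3.23 on the log2 scale, with low counts of 0, 0.997 and 5.44 in AAV-Ly6d and 13.5, 12.9 and 51.5 in AAV-GFP. Unlike Igfbp1, both were lower in AAV-Ly6d, and both encode binding proteins of insulin-like growth factors. Igfbp4, the most abundant of the 4, had a log2 fold change of 0.37 and did not pass (adjusted p = 0.0848), and its sign was negative as a share of the table's reads without Apob (-0.083). Igf1r, the receptor gene, had -1.17 and did not pass (adjusted p = 0.0637). Calls numbered 1, 2 and 0 with AAV-GFP replicate 1, 2 or 3 left out.

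Of the relatives of Klf9, 4 of 16 other Krüppel-like factor genes were tested. Klf11 rose by 0.71 and Klf7 fell by 1.23 on the log2 scale. Klf4 (-0.99) and Klf12 (-0.77, or -0.43 without AAV-GFP replicate 2) did not pass. Klf9 was far more abundant than these 4, with a mean of 3438 in AAV-Ly6d and 2374 in AAV-GFP, while the highest of the 4 in any library was Klf12 at 1237 in AAV-GFP replicate 2. These counts are not adjusted for transcript length. Klf15, which is also induced by glucocorticoids, was not among the genes of the table. With AAV-GFP replicate 2 left out Klf4 and Klf7 passed, and with any other library left out 0 of the 4.

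Glucocorticoids also act on clock genes, of which 4 of 19 listed were tested. All 4 had positive log2 fold changes, against 39.3% of all tested genes. Nfil3, a repressor of the clock output pathway, had counts of 566, 588 and 671 in AAV-Ly6d, against 209, 260 and 355 in AAV-GFP. It rose by 1.17 (SE 0.24, adjusted p = 0.0312 in limma) and passed the DESeq2 adjustment over all annotated genes. Dbp, a clock output factor, had a log2 fold change of 1.10 (0.53 without AAV-GFP replicate 2) and did not pass (adjusted p = 0.0626). Per3 (0.53) and Bhlhe40 (0.43) did not pass either, and Bhlhe40 turned to -0.017 as a share of the table's reads without Apob. No source used here states the time of day at which livers were taken. Nfil3 was called with AAV-GFP replicate 2 or 3 left out, and with no other library left out.

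Glycogen genes had log2 fold changes of both signs, and the single fall lay close to the threshold. Of 6 tested (of 14 listed), 3 rose, 1 fell and 2 did not pass, while 15.9% of all tested genes rose and 28.0% fell. Gys2, the liver glycogen synthase gene, rose by 0.77, Ppp1r3g, which encodes a subunit that directs a phosphatase to glycogen, by 1.51, and the lysosomal glucosidase gene Gaa by 0.47. Ppp1r3b, which encodes another such subunit, fell by 0.48 on the log2 scale, with an adjusted p of 0.0497 in limma. It was not called on the median ratio scale (-0.13, limma adjusted p = 0.610), with pseudocounts of 0.5 or 5, with no filter or a stricter filter on low values, without the mean-variance trend, or in edgeR. The 3 genes that rose were not called as a share of the table's reads without Apob or without the trend. There were 1, 3 and 0 calls when AAV-GFP replicate 1, 2 or 3 was left out.

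Glucose entry and glycolysis also split, with 1 of 5 tested genes that rose, 2 that fell and 2 that did not pass (of 18 listed). Over all tested genes 15.9% rose and 28.0% fell. Pfkfb1, which encodes the liver enzyme that makes and breaks fructose 2,6-bisphosphate, the inhibitor of the enzyme encoded by Fbp1, rose by 0.94. Its counts were 936, 924 and 789 in AAV-Ly6d, against 426, 335 and 677 in AAV-GFP. Tkfc, which encodes a kinase of fructose breakdown, fell by 0.72 on the log2 scale, but was not called on the median ratio scale (-0.38, limma adjusted p = 0.159). Slc2a2, the liver glucose transporter gene, had a log2 fold change of -0.93 (-0.59 without AAV-GFP replicate 2) and did not pass (adjusted p = 0.0531), and Pklr is described above. Omitting AAV-GFP replicate 1, 2 or 3 gave 2, 3 and 1 calls.

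Fasting genes of fatty acid use were higher as well. Of 5 tested genes (of 17 listed), 4 rose and 1 did not pass, while 15.9% of all tested genes rose. Fgf21, the gene of a hormone that the liver secretes in fasting, rose by 2.28, or 1.40 without AAV-GFP replicate 2. Cyp4a10, a fatty acid hydroxylase gene with close copies that can share reads, rose by 0.94, the peroxisomal oxidation gene Ehhadh by 0.84 and the carnitine palmitoyltransferase gene Cpt1a by 0.58. Of these, 1, 2 and 1 were called when AAV-GFP replicate 1, 2 or 3 was omitted. The list had 0 calls as a share of the table's reads without Apob, in edgeR on the deposited scale and in limma without the mean-variance trend.

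Regulators of these programmes that could be tested numbered 4 of 21. Hnf4a, which encodes a nuclear receptor that drives hepatocyte genes including Pck1, had counts of 20638, 18243 and 17487 in AAV-Ly6d, against 13911, 10375 and 11803 in AAV-GFP. It rose by 0.65 (SE 0.19, adjusted p = 0.0409 in limma). Cebpa had a log2 fold change of 0.47 (adjusted p = 0.0503), the coactivator gene Lpin1 1.53 (adjusted p = 0.0562; 0.86 without AAV-GFP replicate 2) and the salt-inducible kinase gene Sik2 -0.53 (adjusted p = 0.0661), and none of these 3 passed. Hnf4a and Cebpa passed with AAV-GFP replicate 2 left out, Lpin1 alone with AAV-GFP replicate 3 left out, and 0 with any other library left out.

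**Figure D5:**
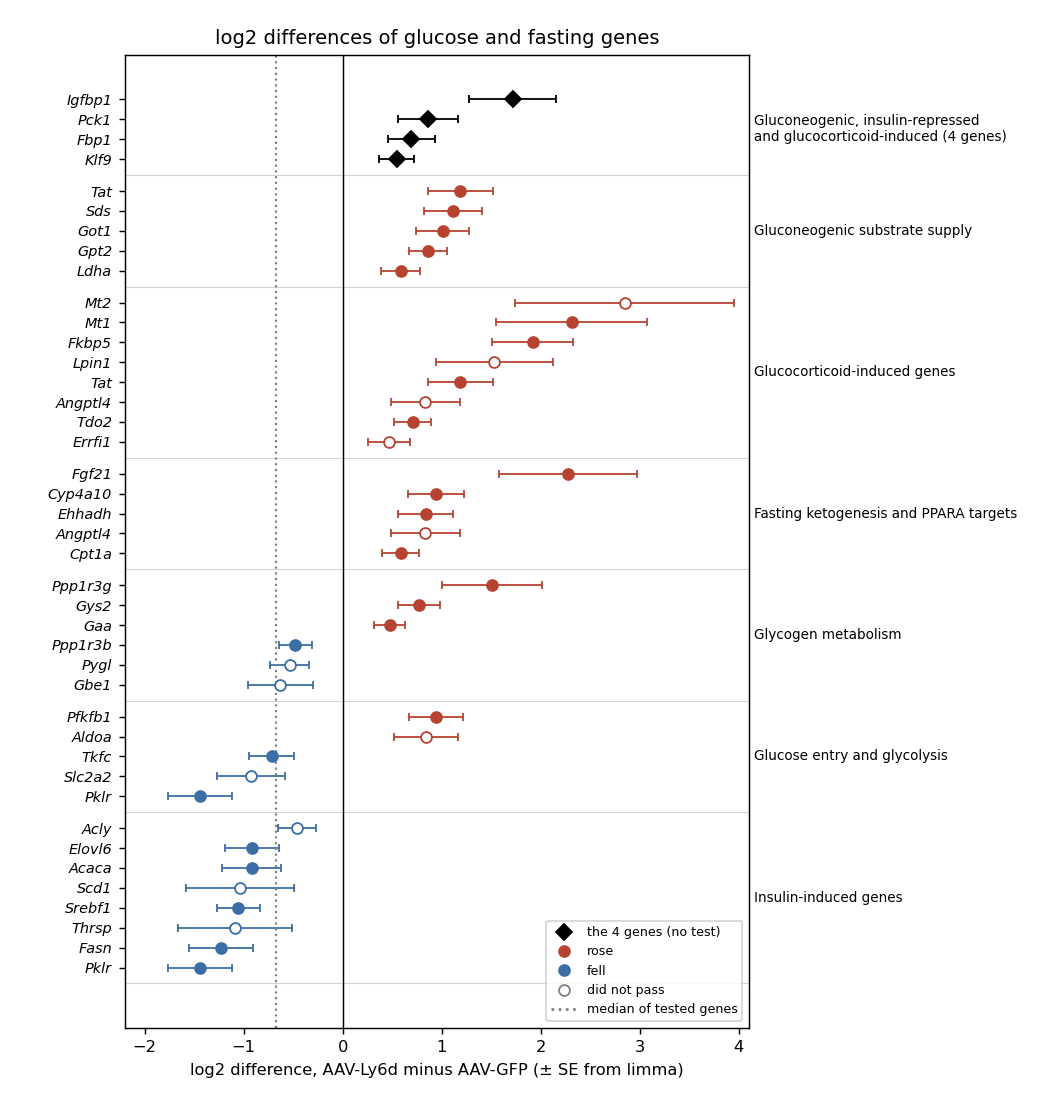
Log2 differences (AAV-Ly6d minus AAV-GFP, ± SE from limma) of Pck1, Fbp1, Igfbp1 and Klf9 (black diamonds, no test) and of the tested genes of 6 lists, with filled circles for genes that rose or fell and open circles for those that did not pass. The dotted line is the median of all tested genes at -0.67; all glucocorticoid-induced, substrate and ketogenesis genes lie right of 0 and all insulin-induced genes left of it.

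The genes whose profile over the 6 libraries was most like each of the 4 were found by the root mean square difference of log2(count + 1), after the mean of each gene was subtracted. For Pck1 they were Pnpla2, the triglyceride lipase gene (0.08), the translation initiation factor gene Eif1 (0.08) and Erf, an ETS repressor gene (0.09). For Fbp1 they were F12, the coagulation factor XII gene (0.04), Creld1 (0.05) and the chaperonin subunit gene Cct2 (0.06). These 6 shared the low AAV-GFP replicate 2 of Pck1 and Fbp1. For Klf9 they were the RNA-binding protein gene Tardbp (0.04), Ranbp9 (0.04) and Necap1 (0.05). For Igfbp1 the distances were larger, with the immunoglobulin gene Ighg2c (0.19), the zinc finger gene Zfp296 (0.28) and the histone gene Hist2h4 (0.32). Ighg2c, Zfp296 and Hist2h4 held at most 56.8, 19.9 and 11.0 counts in any library, against 7994 for Igfbp1, and each was highest in AAV-Ly6d replicate 2.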

How the data were processed

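The samples are 3 AAV-Ly6d and 3 AAV-GFP libraries of mouse liver RNA, made with Illumina protocols per the labels' protocols. The submitters' processing notes name Bowtie 0.12.2 and mm10 with no role. The read counter, its strand setting and how values were normalised are not stated there. The deposited values are a signal in normalised read counts. Within each deposited column 100% of values were whole multiples of 1 step (tolerance 0.001), so reads were recovered by division by that step. In AAV-Ly6d replicate 2 that step lies near 1.

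Symbols, coordinates and transcript lengths come from GENCODE M21 on GRCm38 (1833 of 1834 identifiers matched), and promoters from RefSeq on GRCm38.p6. Differences are on log2(value + 1), a scale on which changes of low genes are understated. The 1780 genes that reached 1 in 3 or more libraries were fitted with limma 3.58.1 in R 4.3.3 with a mean-variance trend, with Benjamini-Hochberg adjustment over all 1780. The code was tested on simulated data. Added alternatives on recovered reads were edgeR 4.0.16 (465 genes called on the deposited scale, 967 with TMM factors) and DESeq2 1.42.0 (1347 called). The table holds genes that differ between these libraries, so its adjusted p-values understate the error.

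The 4 genes and the lists were chosen with earlier results of these data known, and no p is given for the 4. Named list genes are the up to 4 with the smallest p in each list, and 3 nearest profiles are named for each of the 4 genes. No deposited column was a copy of another in its group, as 0 nonzero values were equal between replicates. Each column has its own step, so this check cannot show whether libraries came from separate livers.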

Additional observations from a re-analysis of the deposited data

How the results depend on the processing

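The log2 differences of Pck1, Fbp1, Igfbp1 and Klf9 stayed positive under the rescalings, pseudocounts, left-out libraries and replicate block. They are not given for edgeR or DESeq2. Each rescaling multiplies all counts of a library alike, so it moved the log2 differences of the 4 genes by nearly the same amount. The move was set against the larger group SD of each gene on the log2 scale. This SD was 0.59 for Pck1, 0.41 for Fbp1, 0.84 for Igfbp1 and 0.22 for Klf9. The move was more than 1 such SD for Klf9 after rescaling by the median ratio (0.89). As a share of the table's reads without Apob it was so for Fbp1 (0.24) and Klf9 (0.093). These labels thus follow the spread of each gene. Among the 46 named list genes and Ly6d, 2 values reversed, Bhlhe40 (-0.017) and Igfbp4 (-0.083), both as that share.

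Counts of calls moved more. Over all tested genes 283 were called higher and 499 lower. These counts were 649 and 286 after rescaling by the median ratio, 65 and 1046 as a share without Apob, 161 and 304 in edgeR on the deposited scale, 668 and 299 in edgeR with TMM factors, and 506 and 841 in DESeq2. Adjusted over all annotated genes they were 1 and 0 in limma and 42 and 82 in DESeq2, and limma without the trend called 138 higher. Of the calls, 36.2% were higher on the deposited scale, 69.4% after rescaling by the median ratio, 69.1% with TMM factors and 5.85% as a share without Apob. Leaving out 1 library gave 0 to 283 higher and 0 to 324 lower; without AAV-Ly6d replicate 1 the count was 0 in limma, with 773 genes at an unadjusted p under 0.05. For list genes, 23 were higher and 12 lower. The counts were 2 and 22 as a share without Apob, 7 and 7 without the trend, 0 and 0 in limma and 3 and 3 in DESeq2 adjusted over all annotated genes. Called lower were 6 after rescaling by the median ratio and 6 with TMM factors, and called higher were 12 in edgeR on the deposited scale. With 1 library left out the ranges were 0 to 18 higher and 0 to 12 lower.

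Same-numbered libraries did not deviate together (correlations -0.02, -0.05 and -0.06). These values cannot show whether the numbers stand for a pairing in the design, which the labels do not state. With a replicate block limma called 14 genes higher and 34 lower, and 0 and 1 of the list genes. Each of the 4 genes had at least 747 reads in each library, and 3 libraries per group limit the precision.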

Other observations

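The microRNA hairpin gene Mir1192, inside the Klf9 intron on the same strand, was listed at 0 in the 3 AAV-Ly6d libraries, against 10.6, 22.6 and 2.53 normalised counts in AAV-GFP. This is 0 reads in AAV-Ly6d and 35 in AAV-GFP, and it was named after its values were seen. Klf9 itself, whose counting method is not stated in the labels, was higher in AAV-Ly6d.

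In the deposited order of the table Igfbp1 stood at place 99 between Gstp1 and Cldn14, Klf9 at 613 between C6 and Arap3, Fbp1 at 648 between Acer3 and Nipal1, and Pck1 at 667 between Maml2 and the unnamed model Gm45716.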
